A study of Rattus norvegicus with 11 samples.

Results

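The ligands and receptors of the tumor necrosis factor (TNF) family were followed in the ileum of rats with severe acute pancreatitis (SAP), with and without JZL184, an inhibitor of monoacylglycerol lipase (MAGL), the enzyme that breaks down an endocannabinoid. The 10 genes were set by symbol, with earlier results of these data known. They were Tnf, Lta, Ltb and Tnfsf10 among the ligands and Tnfrsf1a, Tnfrsf1b, Ltbr, Tnfrsf12a, Cd40 and Fas among the receptors. All 10 were found among the 24481 genes with read counts. The study sequenced ileal RNA of rats in 3 groups, with 3 control, 4 SAP and 4 JZL184 libraries, to ask how blocking MAGL changed gene expression in the intestine during SAP. The rats were male Sprague-Dawley (SD) animals of 6 to 8 weeks. SAP was made by infusing 3% sodium taurocholate, a bile salt, backwards into the pancreatic duct of the SAP and JZL184 rats. Grouping and injection followed 24 h after surgery. JZL184 rats were given 10 mg/kg of the compound intraperitoneally in saline, ethanol and Tween-80, control and SAP rats were given vehicle, and all were killed 24 h later. All JZL184 rats therefore also carried SAP, and no group received JZL184 without SAP. The sources used here do not say whether the control rats had a sham operation. In the labels, the control group is said to have had a control plasmid and the SAP titles name oil, where the methods describe vehicle.

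Between 26341299 and 33847135 reads per library lay on genes. Control libraries 1 and 2 were nearly alike, with a chi-square per gene of 2.81 between them against 77.5 to 563 in the other pairs of libraries within a group, so they were counted as 1 sample, which left 2 control samples. SAP libraries 1 and 2 stood apart from SAP libraries 3 and 4. Over 16570 genes, the mean squared log2 difference was 1.45 between these pairs and 0.46 within them. SAP library 2 had 20 reads on Y-linked genes where the other libraries had 1222 to 4665, although the methods describe male rats. The labels name intestinal epithelial cells as well as ileum tissue. Epithelial markers summed to 6960 to 23000 FPKM, but markers of smooth muscle (343 to 1720), T cells (55.1 to 166) and B cells (28.2 to 155) were present in every sample, so the libraries held RNA of the ileal wall and not of epithelium alone. In such tissue, fewer cells of a type and less RNA per cell cannot be told apart.

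TNF is made as a trimeric membrane protein that is cut free by the protease ADAM17. It binds the receptors TNFR1, encoded by Tnfrsf1a and found on most cells, and TNFR2, encoded by Tnfrsf1b and found mainly on immune and endothelial cells. The receptors recruit adaptors of the TRADD and TRAF kind, which activate the transcription factor NF-kB or, where that signal fails, cell death through caspase-8 or through RIPK3 and MLKL. Lymphotoxin alpha and beta, encoded by Lta and Ltb, form a membrane ligand for the lymphotoxin beta receptor (Ltbr), which is known for building Peyer's patches and other lymphoid tissue of the gut. In the intestine TNF is known for loosening tight junctions and for inflammation of the mucosa.

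The levels of the 10 genes spread over a wide range. Levels were compared between genes as FPKM, which corrects for gene length. Ltbr had the highest level, with a mean of 115 FPKM over the 10 samples (43.8 to 208), and lay above Tnfrsf1a in 10 of 10 samples. Tnfrsf1a (mean 27.2 FPKM) and Ltb (mean 27.0 FPKM) could not be ranked, since Tnfrsf1a was the higher in 6 of 10 samples. Ltb lay above Tnfrsf12a (mean 8.18 FPKM) in 10 of 10 samples. The next genes changed places between samples. Tnfrsf12a lay above Fas (7.08 FPKM) in 5 of 10, Fas above Tnfrsf1b (5.41 FPKM) in 8, Tnfrsf1b above Cd40 (5.00 FPKM) in 7, Cd40 above Tnfsf10 (4.31 FPKM) in 6 and Tnfsf10 above Tnf (2.60 FPKM) in 7. Lta, with a mean of 0.247 FPKM and between 2 and 32 reads per library, was the lowest in 10 of 10 samples.

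**Figure D1:**
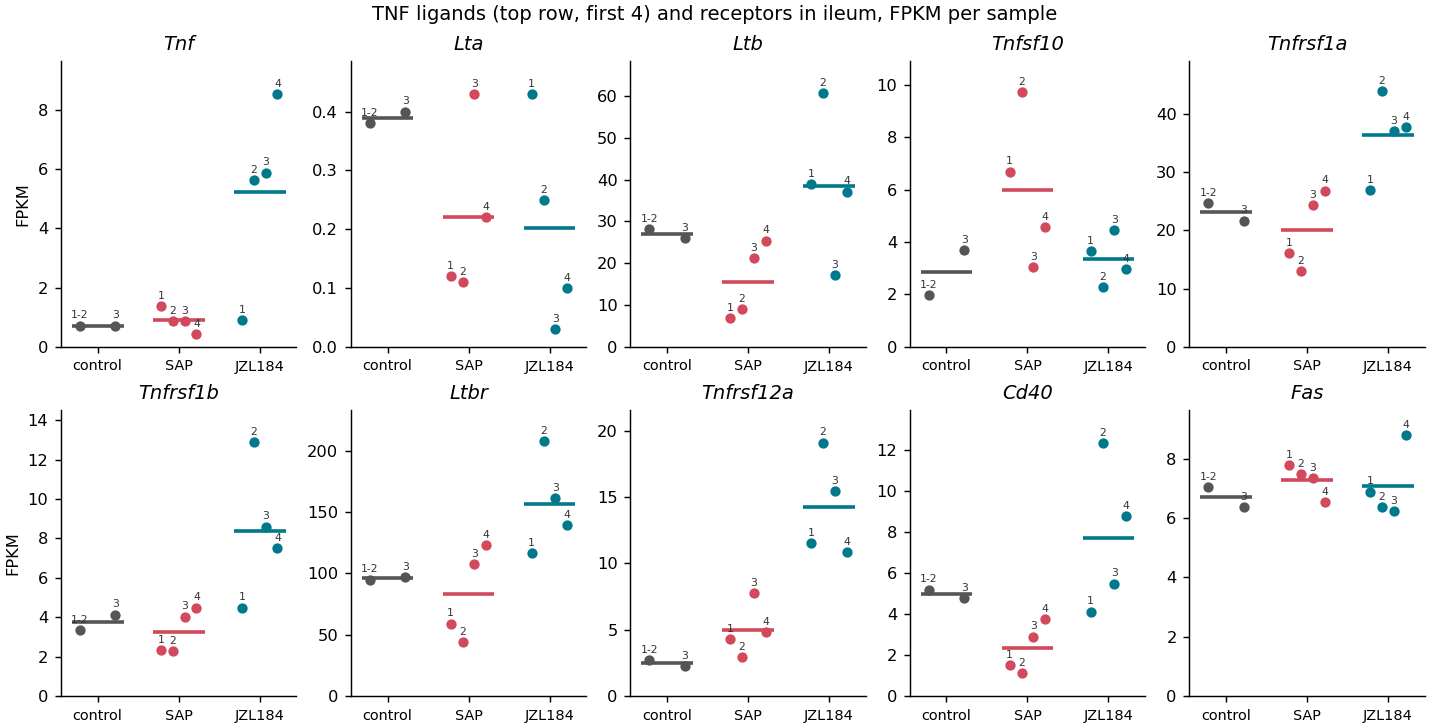
FPKM of the 10 genes (vertical axis, linear, starting at 0) in the control, SAP and JZL184 groups, with 1 point per sample, the library number beside it and a bar at the group mean; control libraries 1 and 2 are averaged to 1 point. Tnfrsf12a lay between 10.8 and 19.1 FPKM in JZL184 and at 7.78 or below in all other samples, whereas Fas lay between 6.22 and 8.79 FPKM in every group.

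To compare groups, edgeR's quasi-likelihood test was run on the counts of all genes. Calling a gene required a p below 0.05 after Benjamini-Hochberg adjustment over all of them together with a fold change outside the range from 0.5 to 2. All 10 genes passed the filter on low counts in the 3 comparisons. Of the 10, edgeR called 0 between SAP and control, 0 between JZL184 and SAP, and 1, Tnfrsf12a, between JZL184 and control. Over all genes tested, the share called was 0% of 16029 genes, 0% of 15308 and 2.16% of 15916.

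Tnf was low in the control and SAP ileum and high in 3 of the 4 JZL184 libraries. Its FPKM was 0.92, 0.52 and 0.72 in the 3 control libraries, 1.38, 0.88, 0.88 and 0.43 in the SAP libraries, and 0.91, 5.63, 5.88 and 8.52 in the JZL184 libraries. JZL184 library 1 lay among the control and SAP libraries and the other 3 lay above all of them. These values rest on 24 to 87 reads per control or SAP library, on 53 in JZL184 library 1 and on 285 to 416 in the other JZL184 libraries. SAP libraries averaged 0.89 ± 0.39 FPKM of Tnf (SD, n = 4), and JZL184 libraries averaged 5.24 ± 3.17 (SD, n = 4). Between JZL184 and SAP, the log2 fold change of Tnf was 2.77 (standard error 0.63, unadjusted p = 0.00127, edgeR adjusted p = 0.0865), which missed the threshold. In size it ranked 81 of 15308 genes from the highest. With DESeq2, the tool of the study's methods, the adjusted p was 0.000476, and with limma-voom and sample quality weights 0.0482. Without JZL184 library 1 the log2 fold change was 3.14 with an edgeR adjusted p of 0.0191. With all samples and the 3 groups in 1 edgeR fit, the adjusted p was 0.0498. The call thus depended on this library as well as on the tool and the fit. On FPKM, the difference of 4.34 between the means gave p = 0.0571 in a two-sided exact permutation test (0.171 adjusted over 3 comparisons), where the smallest p that 4 against 4 allows is 0.0286. In serum, the study reported TNF-α and the cytokine IL-6 as higher in SAP than in control and as decreased by JZL184. Serum protein and ileal RNA are unlike measures, and their relation was not tested.

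Against control, the log2 fold change of Tnf was 2.86 in JZL184 (standard error 0.83, edgeR adjusted p = 0.0902) and 0.12 in SAP (standard error 0.47, edgeR adjusted p = 0.902). DESeq2 gave an adjusted p of 0.00105 for JZL184 against control, and edgeR gave 0.0214 when control libraries 1 and 2 were taken as separate samples. The normalized counts of Tnf in JZL184 did not overlap with those of the 2 control samples, but JZL184 library 1 at 0.91 FPKM was just below control library 1 at 0.92. On FPKM, the exact two-sided permutation p was 0.133 for JZL184 against control (n = 4 and 2), the smallest that this design allows, and 0.667 for SAP against control. Macrophages are known as a main source of TNF. All 9 of their markers had a value, and their summed FPKM was 308 to 354 in control, 150 to 376 in SAP and 94.3 to 305 in JZL184. The markers differed in direction. In JZL184 against control, edgeR called 2 of the 9 tested higher, against 2.16% of all genes called. These were Cd163 (2.99 on the log2 scale, adjusted p = 0.0398) and Mrc1 (2.34, adjusted p = 0.0454), whereas Csf1r had -1.42 and was not called by edgeR. In JZL184 against SAP, edgeR called 0 of the 8 tested. There DESeq2 called 0 higher and 2 lower, against 6.98% of all genes. Markers of neutrophils (7 of 7 with a value) summed to 2.20 to 2.99 FPKM in control, 11.6 to 83.8 in SAP and 18.9 to 251 in JZL184. In JZL184 libraries 1 to 4 the sums were 67.25, 250.6, 18.85 and 35.95, so that only library 2 lay above the SAP range. These markers also differed in direction, with 3 of the 5 tested higher in value in JZL184 against SAP. There edgeR, DESeq2 and limma-voom called 0 of the 5, against 0%, 6.98% and 4.57% of all genes. The part of either cell type in the level of Tnf was not tested.

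Tnf lies between Lta and Ltb on chromosome 20 in the RefSeq annotation of GRCr8. The 3 neighbors differed in the order of their values over the libraries, but a difference between their patterns was not tested. Lta had 0.49, 0.27 and 0.40 FPKM in the control libraries, 0.12, 0.11, 0.43 and 0.22 in SAP and 0.43, 0.25, 0.03 and 0.10 in JZL184. Its reads were few, with 2 in JZL184 library 3, so that differences in Lta were hardly detectable at this depth. For Lta, the fit gave a log2 fold change of -0.97 in SAP against control (standard error 0.63, edgeR adjusted p = 0.480) and 0.00 between JZL184 and SAP (standard error 0.71, edgeR adjusted p = 0.998).

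Ltb, the membrane anchor of the lymphotoxin heterotrimer, had 29.56, 26.63 and 25.92 FPKM in control, 6.81, 9.09, 21.15 and 25.40 in SAP and 38.89, 60.56, 17.12 and 37.13 in JZL184. The control libraries lay close together, SAP libraries 1 and 2 were the lowest, and 3 of 4 JZL184 libraries were above all others. For Ltb, log2 fold changes were -0.92 in SAP against control (standard error 0.58, edgeR adjusted p = 0.474), 1.45 in JZL184 against SAP (standard error 0.55, unadjusted p = 0.0261, edgeR adjusted p = 0.189) and 0.51 in JZL184 against control (standard error 0.50, edgeR adjusted p = 0.534). Without SAP libraries 1 and 2 the fold change between JZL184 and SAP was 0.81 on the log2 scale.

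The promoters of these 3 neighbors are shown because the genes share a locus, and that of Tnfrsf12a because it is the gene that was called. Each line holds the 250 bases before the start of the gene in its own direction, from the RefSeq promoter table of the GRCr8 build: Tnf chr20:3626435-3626684 on the plus strand, Lta chr20:3623277-3623526 on the plus strand, Ltb chr20:3634055-3634304 on the minus strand and Tnfrsf12a chr10:13213649-13213898 on the minus strand. Capitals mark matches on either strand to GGGNNNNNCC, a loose form of the NF-kB pattern in which N is any base. Overlapping matches run together.
Tnf: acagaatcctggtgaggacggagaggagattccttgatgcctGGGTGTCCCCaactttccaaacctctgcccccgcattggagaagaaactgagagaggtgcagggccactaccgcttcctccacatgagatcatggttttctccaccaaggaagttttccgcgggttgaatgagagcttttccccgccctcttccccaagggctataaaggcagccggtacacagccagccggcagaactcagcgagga
Lta: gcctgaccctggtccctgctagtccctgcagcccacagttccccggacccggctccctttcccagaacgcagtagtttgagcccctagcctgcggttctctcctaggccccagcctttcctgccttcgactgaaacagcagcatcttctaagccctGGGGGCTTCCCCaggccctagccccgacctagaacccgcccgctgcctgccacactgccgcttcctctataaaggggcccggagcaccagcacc
Ltb: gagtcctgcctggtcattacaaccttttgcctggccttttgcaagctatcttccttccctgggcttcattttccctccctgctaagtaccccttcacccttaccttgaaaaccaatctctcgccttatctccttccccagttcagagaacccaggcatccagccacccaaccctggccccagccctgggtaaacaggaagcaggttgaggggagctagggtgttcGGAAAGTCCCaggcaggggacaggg
Tnfrsf12a: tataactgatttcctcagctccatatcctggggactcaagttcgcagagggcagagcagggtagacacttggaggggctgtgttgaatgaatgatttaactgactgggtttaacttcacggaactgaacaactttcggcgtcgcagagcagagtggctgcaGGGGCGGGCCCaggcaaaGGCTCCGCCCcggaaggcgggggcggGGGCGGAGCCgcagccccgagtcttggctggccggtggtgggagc
Tnf held the pattern 208 bases before its start, Lta from 94 bases before its start in 3 overlapping positions, and Ltb 25 bases before its start, where the opposite strand reads GGGACTTTCC. Tnfrsf12a held matches that began 89, 88, 71 and 45 bases before its start. Of the 9 genes with an entry, 7 held at least 1 match, and Tnfrsf1a and Tnfsf10 held none. Of all 33469 promoters of the same length, 42.3% held a match, so the pattern is common, and a match is a description of the letters and not a site of binding. The promoter of Cd40 was not analysed here.

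Tnfsf10 encodes TRAIL, a ligand that triggers cell death through its own receptors. Its FPKM was 1.93, 2.04 and 3.71 in control, 6.69, 9.72, 3.06 and 4.56 in SAP and 3.66, 2.28, 4.45 and 2.96 in JZL184. SAP libraries 1 and 2 were the highest, and the groups overlapped. Tnfsf10 had a log2 fold change of 0.90 in SAP against control (standard error 0.48, edgeR adjusted p = 0.459), -0.68 in JZL184 against SAP (standard error 0.34, edgeR adjusted p = 0.269) and 0.19 in JZL184 against control (standard error 0.34, edgeR adjusted p = 0.755). It was the only one of the 10 genes with a log2 fold change below 0 between JZL184 and SAP, except that the value of Lta, near 0, changed sign under 9 alternatives and that of Fas under 1. Without SAP libraries 1 and 2 this fold change was -0.17 on the log2 scale.

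Tnfrsf12a, the receptor (Fn14) of the ligand TWEAK that is known to be induced in injured tissue, rose in JZL184 against control. It had 2.75, 2.65 and 2.25 FPKM in control, 4.30, 2.94, 7.78 and 4.84 in SAP and 11.56, 19.13, 15.47 and 10.84 in JZL184. All 4 JZL184 libraries were above all SAP and control libraries, and the SAP libraries were above the control libraries in FPKM. Control samples averaged 2.48 ± 0.32 FPKM (SD, n = 2), SAP libraries averaged 4.97 ± 2.04 (SD, n = 4) and JZL184 libraries averaged 14.3 ± 3.84 (SD, n = 4). Its log2 fold change against control was 2.50 (standard error 0.42, edgeR adjusted p = 0.0285), higher in 4 of 4 samples. Over the alternatives tried, its adjusted p lay between 8.3e-10 and 0.388. The call was lost without control libraries 1 and 2 (adjusted p = 0.388), without control library 3 (0.189), without JZL184 library 2 (0.0615), without JZL184 library 4 (0.0623) and with the replicate number as a block (0.118).

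Between JZL184 and SAP, the log2 fold change of Tnfrsf12a was 1.68 (standard error 0.39, unadjusted p = 0.00153, edgeR adjusted p = 0.0900), and DESeq2 gave an adjusted p of 0.00309. SAP against control gave 0.84 (standard error 0.48, edgeR adjusted p = 0.461). The ligand TWEAK is encoded by Tnfsf12, whose log2 fold change was -0.66 in JZL184 against control (edgeR adjusted p = 0.169) with 4.12 to 5.32 FPKM in JZL184 and 6.30 to 8.02 in the control libraries.

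Tnfrsf1a and Tnfrsf1b, the receptors of TNF itself, varied alike over the libraries. Tnfrsf1a had 23.82, 25.45 and 21.63 FPKM in control, 16.01, 12.99, 24.25 and 26.79 in SAP and 26.90, 43.82, 37.01 and 37.70 in JZL184. Tnfrsf1b had 3.43, 3.29 and 4.13 FPKM in control, 2.31, 2.26, 4.03 and 4.49 in SAP and 4.49, 12.91, 8.60 and 7.52 in JZL184. For both, SAP libraries 1 and 2 were lowest, SAP libraries 3 and 4 were near control, and JZL184 library 2 was highest. Between JZL184 and SAP, Tnfrsf1a gave a log2 fold change of 1.01 (standard error 0.35, unadjusted p = 0.0153, edgeR adjusted p = 0.161), and Tnfrsf1b gave 1.52 (standard error 0.43, unadjusted p = 0.00567, edgeR adjusted p = 0.120, DESeq2 adjusted p = 0.0211). Without SAP libraries 1 and 2 these were 0.58 and 1.06. In JZL184 against control they were 0.63 (edgeR adjusted p = 0.258) and 1.17 (edgeR adjusted p = 0.159). In SAP against control they were -0.36 and -0.33 (edgeR adjusted p = 0.647 and 0.691), and 0.0748 and 0.13 without SAP libraries 1 and 2.

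Ltbr, which lies close to Tnfrsf1a on chromosome 4 with Scnn1a between them, varied in the same way. Its FPKM was 95.83, 94.07 and 96.95 in control, 59.08, 43.76, 107.94 and 123.31 in SAP and 116.40, 207.84, 161.67 and 139.69 in JZL184. The control libraries were within a narrow range, SAP libraries 1 and 2 were below it, and SAP libraries 3 and 4 and all JZL184 libraries were above it. Ltbr gave a log2 fold change of 1.05 in JZL184 against SAP (standard error 0.42, unadjusted p = 0.0325, edgeR adjusted p = 0.200) and 0.69 in JZL184 against control (standard error 0.35, edgeR adjusted p = 0.251). In SAP against control it was -0.33 (edgeR adjusted p = 0.727) and changed sign, to 0.21, without SAP libraries 1 and 2. Over the alternatives tried, the log2 fold change of Ltbr in JZL184 against SAP lay between 0.51 and 1.37.

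Cd40 encodes a receptor of B cells, dendritic cells and macrophages that takes the CD40 ligand from T cells. Its FPKM was 5.64, 4.73 and 4.77 in control, 1.50, 1.12, 2.89 and 3.76 in SAP and 4.11, 12.35, 5.48 and 8.79 in JZL184. All SAP libraries were below all control and JZL184 libraries. Cd40 gave a log2 fold change of -1.23 in SAP against control (standard error 0.54, unadjusted p = 0.0546, edgeR adjusted p = 0.459) and 1.89 in JZL184 against SAP (standard error 0.54, unadjusted p = 0.00598, edgeR adjusted p = 0.122). For the latter, DESeq2 gave an adjusted p of 0.0139 and limma-voom 0.0463. Without SAP libraries 1 and 2 the values were -0.64 and 1.30 on the log2 scale. JZL184 against control gave 0.64 (standard error 0.51, edgeR adjusted p = 0.452).

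Fas, the death receptor of the Fas ligand, lay between 6.22 and 8.79 FPKM in all 11 libraries. It had 7.25, 6.83 and 6.36 FPKM in control, 7.79, 7.48, 7.34 and 6.52 in SAP and 6.89, 6.37, 6.22 and 8.79 in JZL184. The groups overlapped. Its log2 fold changes were -0.06 (standard error 0.27), 0.13 (standard error 0.23) and 0.04 (standard error 0.29) in SAP against control, JZL184 against SAP and JZL184 against control, with edgeR adjusted p of 0.919, 0.761 and 0.939.

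**Figure D2:**
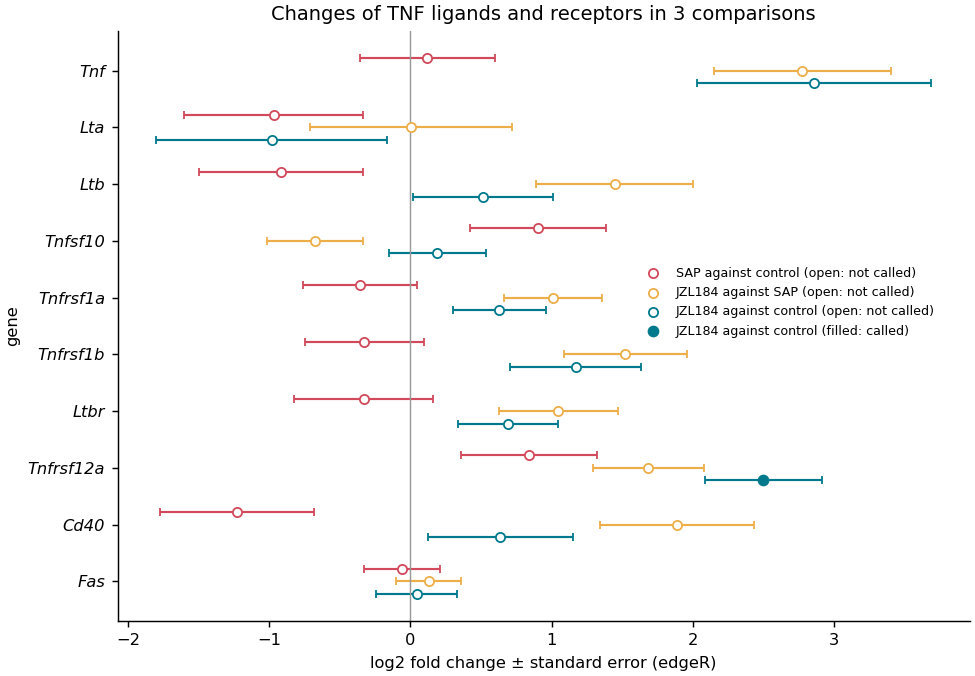
log2 fold change (horizontal axis) with its standard error from edgeR for the 10 genes (vertical axis) in the 3 comparisons; filled points were called and open points were not. Between JZL184 and SAP the points of Tnf (2.77), Cd40 (1.89), Tnfrsf12a (1.68), Tnfrsf1b (1.52) and Ltb (1.45) lie farthest to the right, and the only filled point is Tnfrsf12a in JZL184 against control (2.50).

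In JZL184 against SAP, most of the 10 genes were higher in value, but none passed the adjusted threshold with edgeR. At an unadjusted p below 0.05, 7 of 10 were higher (Tnf, Tnfrsf1a, Tnfrsf1b, Tnfrsf12a, Ltb, Ltbr and Cd40), where 10.3% of all genes were higher and 11.1% lower, and 0 of the 10 were lower. DESeq2 called 4 of 10 (Tnf, Tnfrsf1b, Tnfrsf12a and Cd40) against 6.98% of all genes, and limma-voom called 3 of 10 (Tnf, Tnfrsf12a and Cd40) against 4.57%. JZL184 and SAP had no overlap in normalized counts for Tnfrsf12a and Cd40, both higher, where 6.23% of all genes were higher and 5.59% lower without overlap. The median log2 fold change was 1.25 over the 10 genes and -0.05 over all genes. These counts include genes that share a locus and genes that varied together over the samples, so they are not counts of separate observations. The Pearson correlation of Tnfrsf1a was 0.986 with Ltbr, 0.964 with Cd40 and 0.962 with Tnfrsf1b. The list was not tested as a whole.

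Between SAP and control, differences were smaller and mixed in sign. At an unadjusted p below 0.05, 0 of 10 genes were higher or lower, where 5.69% of all genes were higher and 3.40% lower. DESeq2 and limma-voom called 0 of 10, and 1.23% and 0.0873% of all genes. Cd40, which was lower, was the only one of the 10 without overlap in normalized counts, where 11.3% of all genes were higher and 11.9% lower without overlap. The median log2 fold change was -0.33 over the 10 genes and 0.06 over all genes.

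In JZL184 against control, 3 of 10 genes (Tnf, Tnfrsf1b and Tnfrsf12a) were higher at an unadjusted p below 0.05 and 0 were lower, where the shares of all genes were 13.8% and 12.5%. DESeq2 called 2 of 10 (Tnf and Tnfrsf12a) against 10.8% of all genes, and limma-voom called 3 of 10, Tnfrsf1b added, against 18.3%. Tnf, Tnfrsf1b, Tnfrsf12a and Ltbr were higher without overlap, where 18.9% of all genes were higher and 19.3% lower without overlap. The median log2 fold change was 0.63 over the 10 genes and 0.08 over all genes. The 3 comparisons share samples in pairs, so these counts are not independent of each other.

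The split among the SAP libraries was seen in 9 of the 10 genes, and in 70.5% of 16570 genes overall. In FPKM, Lta, Ltb, Tnfrsf1a, Tnfrsf1b, Ltbr, Tnfrsf12a and Cd40 were lower in both SAP libraries 1 and 2 than in SAP libraries 3 and 4, where 30% of all genes were lower, and Tnfsf10 and Fas were higher, where 40.4% were higher. Without SAP libraries 1 and 2, the log2 fold changes between JZL184 and SAP were 3.09 for Tnf and 1.26 for Tnfrsf12a. Without SAP library 2 alone, they were 2.74 for Tnf, 1.63 for Cd40, 1.47 for Tnfrsf12a and 1.35 for Tnfrsf1b, and edgeR called 0 of the 10 genes in either case. Markers of B cells and follicles split in the same way. All 10 of them had a value, none was at 0 in every library of a group, and their summed FPKM was 28.2 and 45.8 in SAP libraries 1 and 2, 79.7 and 86.0 in SAP libraries 3 and 4, 92.1 to 108 in control and 67.9 to 155 in JZL184. JZL184 library 1 had the highest sum, whereas JZL184 library 2 had the highest FPKM of Ltb and Cd40. Between JZL184 and SAP, 9 of the 10 B cell markers were higher in value, with a median log2 fold change of 0.74, of which edgeR called 0 and DESeq2 and limma-voom 1 each, against 6.98% and 4.57% of all genes, and 4 were higher at an unadjusted p below 0.05, against 10.3%. Their part in the levels of Ltb, Lta and Cd40 was not tested. The split was not particular to B cell markers. T cell markers summed to 55.1 and 108 in SAP libraries 1 and 2 and to 136 and 161 in SAP libraries 3 and 4. Sums of macrophage, dendritic cell, epithelial, smooth muscle and exocrine pancreas markers were also lower in both SAP libraries 1 and 2. Fibroblast sums were higher there, and those of neutrophils, endothelium and innate lymphoid cells overlapped.

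**Figure D3:**
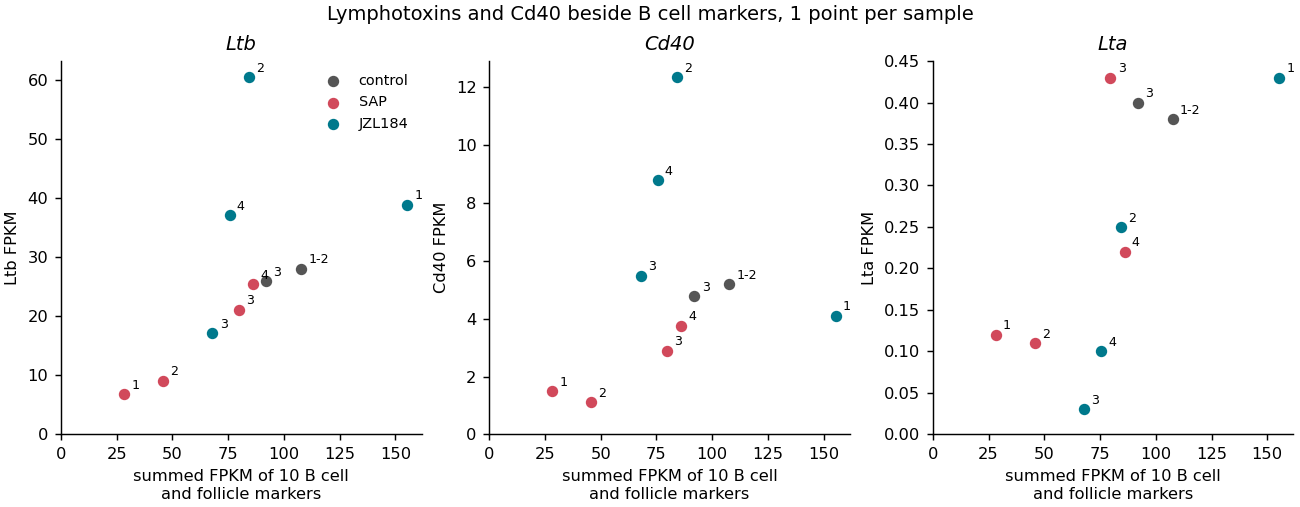
FPKM of Ltb, Cd40 and Lta (vertical axes) against the summed FPKM of 10 markers of B cells and follicles (horizontal axis), with 1 point per sample and colors for the groups. SAP libraries 1 and 2 lie lowest on the marker axis (28.2 and 45.8), and JZL184 library 2 has the highest Ltb and Cd40 at a marker sum of 84.4.

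Some of the 10 genes varied together over the samples, and this is given as a description only, since the 10 samples fall into 3 groups and SAP libraries 1 and 2 stood apart. The Pearson correlation of log2 CPM (counts scaled to library size) over 10 samples was 0.986 between Tnfrsf1a and Ltbr, which was the third closest to Tnfrsf1a of 16570 genes, after Slc43a1 (0.994) and RGD1564606 (0.993). Between Tnfrsf1a and Tnfrsf1b it was 0.962. The genes closest to Tnf were Rassf10 (0.989), Tcerg1l (0.979) and Gpalpp1 (0.969). Those closest to Tnfrsf12a were Adora2a (0.981), LOC100909946 (0.972) and LOC120097182 (0.965). Nearest to Tnfrsf1b were Sin3b (0.986), RGD1562402 and Ufd1 (both 0.985), and nearest to Ltbr were Rps15al4 (0.991), LOC120093766 (0.990) and Ube2f (0.986). Cd40 was closest to Rhno1 (0.979), Derl1 (0.975) and Rab4b (0.971), and Ltb to Amdhd2 (0.971), Fgd3 (0.965) and N4bp3 (0.963). Lta was closest to Pbdc1 (0.985), RGD1562690 (0.961) and Mboat7 (0.960), Tnfsf10 to Xrn1 (0.935), Ypel2 (0.926) and Scn7a (0.923), and Fas to Fads3 (0.909), Adgrb2 (0.908) and Zfand3 (0.880).

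The rest of the pathway was read from fixed lists. Of 24 genes that NF-kB is known to induce downstream of TNF, 23 were tested in JZL184 against control. Of these, edgeR called 8 higher and 0 lower, against 2.16% of all genes, and DESeq2 called 14 higher and limma-voom 15 higher and 1 lower, against 10.8% and 18.3%. Unadjusted, 16 were higher and 1 lower at p below 0.05, against 13.8% and 12.5%. Ccl2, a chemokine for monocytes, gave a log2 fold change of 4.04 (standard error 0.43, edgeR adjusted p = 0.0112), with 2.65 to 4.84 FPKM in the control libraries and 47.4 to 89.7 in JZL184. Cxcl1, a chemokine for neutrophils, gave 7.14 (standard error 0.83, edgeR adjusted p = 0.0144), with 0.63 to 4.15 FPKM in control and 218 to 411 in JZL184. Lcn2, an iron-binding antimicrobial protein of inflamed epithelium, gave 6.95 (standard error 0.87, edgeR adjusted p = 0.0155). The other 5 called genes, singled out once their values were known, were the chemokine Cxcl2 (7.32 on the log2 scale), the cytokine Il6 (6.18), the endothelial adhesion molecule Sele (5.68), the NF-kB inhibitor Tnfaip3 (3.56) and the superoxide dismutase Sod2 (2.58).

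In JZL184 against SAP, edgeR called 0 of 23 of these induced genes, while 13 were called by DESeq2 and 11 by limma-voom, against 6.98% and 4.57% of all genes. Unadjusted, 16 were higher and 0 lower at p below 0.05, against 10.3% and 11.1%. Cxcl1 had 35.40, 5.90, 25.73 and 17.44 FPKM in SAP and 217.96, 339.16, 387.94 and 411.25 in JZL184, with a log2 fold change of 4.18 (standard error 0.54, edgeR adjusted p = 0.0604). Birc3, an inhibitor of apoptosis bound to TRAF proteins that also stands in the list of adaptors, gave 1.74 (standard error 0.25, edgeR adjusted p = 0.0604). Nfkbia, the inhibitor that returns NF-kB to rest, gave 2.34 (standard error 0.41, edgeR adjusted p = 0.0692). For all 3, every JZL184 library was above every SAP library. The summed FPKM of the list was 1223 in JZL184 library 1, where Tnf was also lowest in the group, 2065, 2116 and 2809 in the other JZL184 libraries and 588 to 899 in SAP. Whether Tnf had a part in these levels was not tested. In SAP against control, edgeR called 0 of 24, DESeq2 called 5 and limma-voom called 1, against 0%, 1.23% and 0.0873% of all genes. Unadjusted, 9 were higher and 0 lower at p below 0.05, against 5.69% and 3.40%. The smallest p there was for Lcn2 (log2 fold change 4.51), Ccl2 (2.52) and Cxcl2 (5.19), with edgeR adjusted p of 0.150, 0.459 and 0.459. The median log2 fold change of the list was 0.93 in SAP against control, 1.55 in JZL184 against SAP and 2.01 in JZL184 against control.

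The 33 adaptors and enzymes that carry the signal of the receptors showed smaller differences. All 33 were tested, and edgeR called 0 in each of the 3 comparisons. DESeq2 called 0, 2 and 4 of them, against 1.23%, 6.98% and 10.8% of all genes, and limma-voom called 0, 2 and 6, against 0.0873%, 4.57% and 18.3%. At an unadjusted p below 0.05, 2 were higher and 1 lower in SAP against control (5.69% and 3.40% of all genes), 4 higher and 2 lower in JZL184 against SAP (10.3% and 11.1%), and 6 higher and 4 lower in JZL184 against control (13.8% and 12.5%). Their median log2 fold changes of 0.22, -0.09 and 0.16 were near those of all genes. Mlkl, the pore-forming protein of necroptosis, had 6.51, 6.70 and 7.09 FPKM in control, 38.19, 34.40, 9.55 and 11.82 in SAP and 6.85, 2.93, 2.93 and 5.35 in JZL184. All SAP libraries were above all others, SAP libraries 1 and 2 most. Mlkl gave a log2 fold change of 1.57 in SAP against control (edgeR adjusted p = 0.459) and -2.18 in JZL184 against SAP (standard error 0.47, edgeR adjusted p = 0.0851, DESeq2 adjusted p = 0.000812).

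Others with the smallest p in this list were Xiap, a caspase inhibitor (1.69 on the log2 scale, edgeR adjusted p = 0.459), and Rbck1, a subunit of the linear ubiquitin ligase (-0.96, edgeR adjusted p = 0.459), in SAP against control. For JZL184 against SAP it was Nfkb2, a subunit of NF-kB (0.94, edgeR adjusted p = 0.141), beside Birc3 and Mlkl. For JZL184 against control they were Traf3, an adaptor of Ltbr and Cd40 (1.39, edgeR adjusted p = 0.0702), Birc3 (1.18, edgeR adjusted p = 0.0821) and Rbck1 (-1.11, edgeR adjusted p = 0.0844).

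Of 14 other ligands of the family, 9 had enough reads for a test, and edgeR, DESeq2 and limma-voom each called 0 in each comparison. At an unadjusted p below 0.05 there were 0 in SAP against control, 0 in JZL184 against SAP and 1, Tnfsf12, lower in JZL184 against control, where 12.5% of all genes were lower. Of 19 other receptors, 18 were tested in SAP against control and 17 in the other comparisons, and edgeR again called 0, while DESeq2 called 0, 3 and 2 (1.23%, 6.98% and 10.8% of all genes) and limma-voom 0, 0 and 2 (0.0873%, 4.57% and 18.3%) in SAP against control, JZL184 against SAP and JZL184 against control. In SAP against control, 0 had an unadjusted p below 0.05. At an unadjusted p below 0.05, 5 were higher and 1 lower in JZL184 against SAP, against 10.3% and 11.1% of all genes. The smallest p was for Tnfrsf8 (CD30, 1.31 on the log2 scale), Tnfrsf9 (4-1BB, 1.60) and Tnfrsf4 (OX40, 1.71), receptors of activated T cells, with edgeR adjusted p of 0.144, 0.153 and 0.154. In JZL184 against control, Cd27, a receptor of T cells and B cells (1.85), and Ngfr (1.35) were higher, and Tnfrsf21, a death receptor (-1.04), was lower at an unadjusted p below 0.05, with edgeR adjusted p of 0.0944, 0.0965 and 0.128, against 13.8% of all genes higher and 12.5% lower. T cell markers (10 of 10 with a value) summed to 145 to 166 FPKM in control, 55.1 to 161 in SAP and 92.0 to 124 in JZL184.

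**Figure D4:**
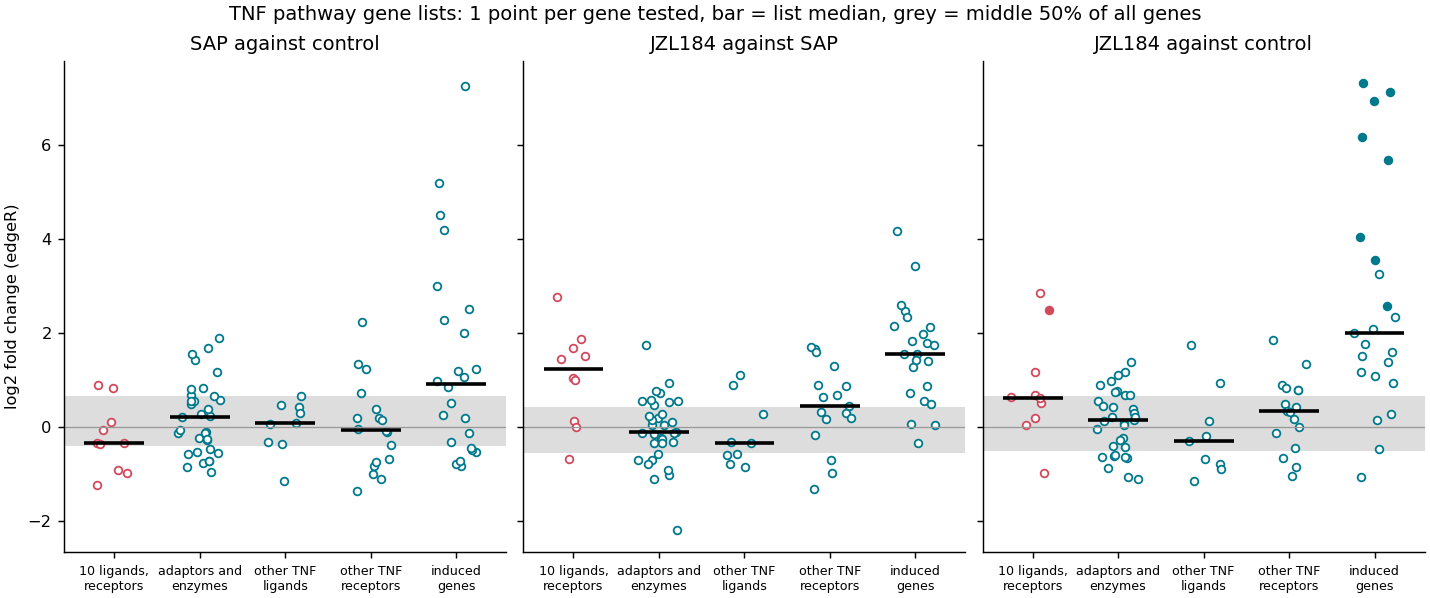
log2 fold change from edgeR (vertical axis) of each tested gene of the 10 ligands and receptors and of the 4 lists of other pathway genes (horizontal axis) in the 3 comparisons; bars are list medians, the grey band holds the middle 50% of all genes and filled points were called. The induced genes have medians of 0.93, 1.55 and 2.01, and the adaptors have 0.22, -0.09 and 0.16.

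**Figure D5:**
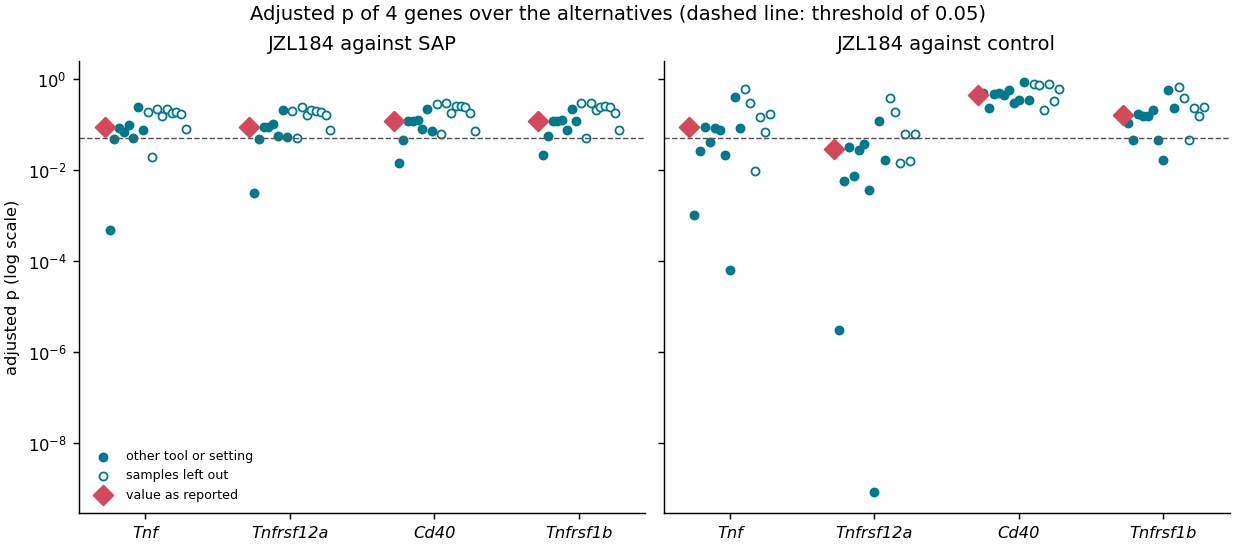
Adjusted p (vertical axis, log scale) of Tnf, Tnfrsf12a, Cd40 and Tnfrsf1b in JZL184 against SAP and in JZL184 against control, with diamonds for the values as reported, filled circles for other tools or settings and open circles for fits with samples left out; the dashed line is at 0.05. In JZL184 against SAP the adjusted p of Tnf ranged from 0.000476 to 0.239 and that of Tnfrsf12a from 0.00309 to 0.236. Tnf crossed the line with the tool, the fit and the samples used, and Tnfrsf12a only with DESeq2 and limma-voom.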

How the data were processed

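The read counts and FPKM of ileal RNA were used as deposited. The authors trimmed reads with FASTX-Toolkit, aligned them to mRatBN7.2 with HISAT2 and deposited the count of uniquely aligned reads per gene, without normalization. The authors also calculated FPKM, deposited with 2 decimals for 24205 genes. No source used here names the counting tool or the annotation. Groups were compared in pairs with edgeR 4.0.16 in R 4.3.3 (quasi-likelihood test, TMM, default filter with minimum count 10, Benjamini-Hochberg over all genes). DESeq2 1.42.0 and limma 3.58.1 (voom with quality weights) were alternatives, beside other size factors, no filter, a minimum of 10 reads per library, 1 fit of all groups, control libraries separate, the replicate number as a block, length offsets and samples left out. Tests were tested on simulated data. Averaged over genes, counting error was small beside the spread between libraries of a group, control libraries 1 and 2 excepted. It was not compared gene by gene. It weighs most where reads were few, as for Lta, Tnf and, in control, Tnfrsf12a (75 to 85 reads). The labels number the samples but do not say that each is a separate rat, so p-values measure only the spread between these samples. Tnf FPKM was also compared by exact permutation with scipy 1.17.1. The replicate number was not used to pair samples in the main fits. In 2 of 16 cases a sample matched best with its own number. This check cannot exclude pairing, since the 2 control samples mirror each other in it and the SAP libraries were split. The kit kept strand, but whether counting used it is not stated.

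The 10 genes and the lists were chosen with earlier results of these data known. Named genes are all 10, the 3 smallest p of each list and comparison, and the 3 genes with the highest correlation to each of the 10. A gene outside this rule is marked in the text as singled out once its values were known.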

Additional observations from a re-analysis of the deposited data

How the results depend on the processing

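Of the recomputed fold changes of the 10 genes, 449 kept their direction and their side of the threshold, 19 newly passed it, 5 no longer did and 24 changed sign, and the cause was not tested. Between JZL184 and SAP, the number of the 10 genes called went from 0 to 4 with DESeq2, 3 with limma-voom and 1 (Tnf, adjusted p = 0.0498) with all 3 groups in 1 fit, and lay between 0 and 1 when each sample was left out. Between JZL184 and control it went from 1 to 2 with DESeq2, 3 with limma-voom, 2 without a filter, 3 with control libraries 1 and 2 separate (3 with DESeq2) and 0 with the replicate block, and lay between 0 and 3 when each sample was left out. In SAP against control it was 0 throughout.

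None of the 24 changes of sign was in a value that had been called. In SAP against control these were, on the log2 scale, Fas with length offsets (0.00787), and without SAP libraries 1 and 2 together Tnf (-0.22), Tnfrsf1a (0.0748), Tnfrsf1b (0.13) and Ltbr (0.21). With each sample left out, Tnf ranged from -0.13 to 0.32 and Fas from -0.19 to 0.0898. In JZL184 against SAP, Lta gave -0.00417 with DESeq2, -0.53 with limma-voom, -0.0213 without a filter, -0.10 with the replicate block and -0.62 without SAP libraries 1 and 2, and with each sample left out Lta ranged from -0.59 to 0.53 and Fas from -0.00479 to 0.21. In JZL184 against control, the replicate block gave -0.20 for Ltb, -0.20 for Cd40 and -0.17 for Fas, and Fas gave -0.0105 with control libraries 1 and 2 separate in DESeq2. With each sample left out, Fas ranged from -0.0938 to 0.18 and Tnfsf10 from -0.16 to 0.62.

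Over all genes, the number called in SAP against control was 0 with edgeR, 208 with DESeq2, 14 with limma-voom, 14 without a filter, 4 in 1 fit, 33 with control libraries separate (1434 with DESeq2), 147 with the replicate block, 74 without SAP libraries 1 and 2, and 0 to 3 with each sample left out. In JZL184 against SAP it was 0 with edgeR, 1283, 699, 27 and 207 in the same order of settings, and 0 to 655 with samples left out. In JZL184 against control it was 343 with edgeR, 1899, 2906 and 929 with DESeq2, limma-voom and no filter, 2800 with control libraries separate (3482 with DESeq2), 66 with the block, and 0 to 1867 with samples left out. The replicate block is given because the labels number the replicates. In 2 of 16 cases a sample correlated best with its own number, which cannot settle whether the numbers pair the samples.

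With 2 control samples and 4 in the other groups, leaving out 1 control sample left a lone one, which the fit takes to vary like the other group. Lta, with 2 to 32 reads per library, was limited by depth.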
